A study of Mus musculus with 3 samples.

Results

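Growth factors that kidney macrophages can release were described across the immune cells of the mouse kidney, with insulin-like growth factor I (Igf1) at the centre. The members were Igf1, Tgfb1, Hbegf, Pdgfa, Pdgfb, Grn and Osm, 7 of the 32886 genes in the deposited count table. They were chosen by name as macrophage growth factors from earlier results of these same data, in which Igf1 was higher in the medulla than in the cortex, so their levels in macrophages and that difference of Igf1 are given as values with no test. CD45+ leukocytes had been sorted from kidneys of untreated wild type male C57BL/6J mice (10 weeks old) after each had been cut into a cortical piece and pieces of the outer (OM) and the inner medulla (IM). They were sequenced as single cells in droplets in Aachen (10x v2 chemistry), Bonn and Hamburg (v3 chemistry). The table held 20266 cells in 23 clusters named by the authors, 22 of them with a cell type, and 9 libraries, 1 for each compartment and facility. The number of mice behind a library is not given in the sources used here. A p-value below therefore sets a difference between compartments against the spread of that difference between facilities (n = 3). The fits estimate that spread with information shared across all genes tested, so a gene's own facilities enter it only in part. This spread may be technical. Chemistry and facility cannot be told apart.

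The members are secreted or shed signals with separate receptors. Igf1 acts through the tyrosine kinase receptor Igf1r, and secreted binding proteins (Igfbp) hold it in the tissue and set how much is free. Tgfb1 is released in a latent form and drives fibrosis and immune tolerance once activated. Hbegf is shed from the cell surface and acts on the receptor of epidermal growth factor, which tubule cells carry. Pdgfa and Pdgfb are chains of platelet-derived growth factor, a mitogen of fibroblasts and pericytes. Grn encodes progranulin, which is secreted and also works in the lysosome, and Osm encodes oncostatin M, a cytokine of the interleukin-6 family that signals through gp130 (Il6st).

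Levels are counts of unique molecular identifiers (UMIs), summed over the cells of a cluster in a facility, given per 1000000 UMIs of those cells (CPM) and averaged over facilities with at least 10 such cells. CPM of different genes were not ranked against each other. Libraries held 2122810 to 15267100 UMIs, and the median cell held 887, 3290.5 and 2943.92 UMIs at Aachen, Bonn and Hamburg. Between 1.67 and 3.08% of a library's cell barcodes also occurred in another library. Resident macrophages were the clusters Macrophage_1, Macrophage_2, Macrophage_3 and Isg+_Macrophage, 5367 cells in all, and their 6 markers (C1qa, C1qb, C1qc, Csf1r, Adgre1 and Cd81) summed to 17150 to 25350 CPM in the 9 libraries with no marker at 0.

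The members did not share a cell type. Igf1, Pdgfa and Pdgfb had their highest mean level in a macrophage cluster, whereas Tgfb1 was highest in monocytes, Grn in plasmacytoid dendritic cells (pDC), Osm in neutrophils and Hbegf in a small T cell cluster. For Tgfb1, Grn, Osm and Hbegf the name macrophage growth factor therefore did not describe where their mean levels were highest in these kidneys. For Tgfb1 the facility ranges of monocytes and Macrophage_2 overlapped. The clusters were built from the expression of these cells, so the order of levels carries no test.

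**Figure D1:**
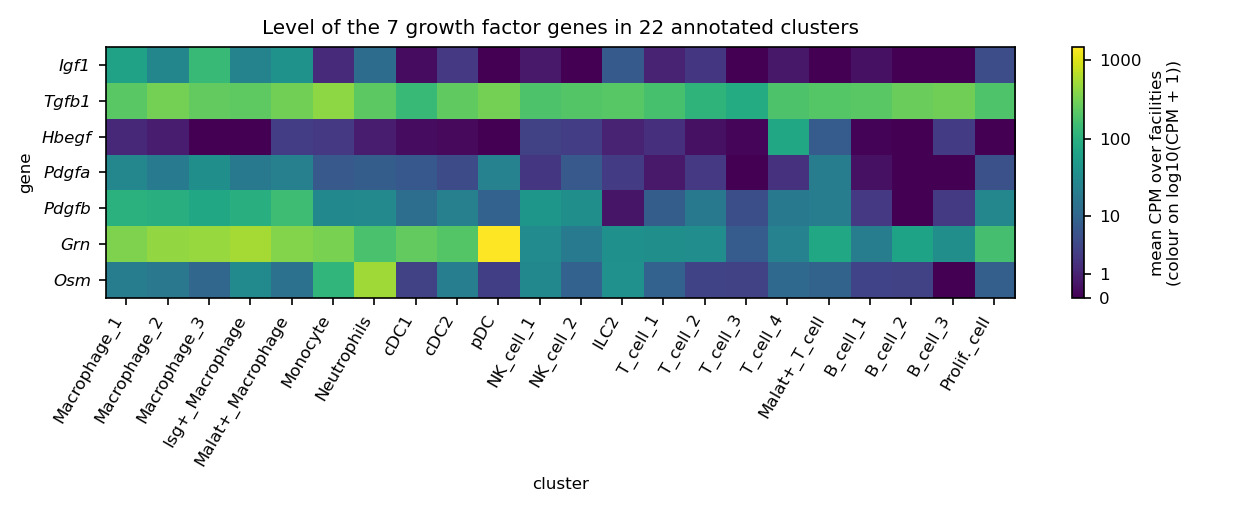
Mean level of each of the 7 genes (rows) in each of the 22 named clusters (columns), as CPM averaged over facilities, with colour on a log10(CPM + 1) scale. Igf1, Pdgfa and Pdgfb are brightest in macrophage columns, Osm in the neutrophil column (526 CPM), Hbegf in T_cell_4 (75.6 CPM) and Grn in the pDC column (1480 CPM), while Tgfb1 is bright in every column.

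Igf1 lay in macrophages. Its level was 138 ± 33.2 CPM in Macrophage_3 (SD, n = 3; 115 to 176), 66.8 ± 37.4 CPM in Macrophage_1 (36.1 to 109) and 40.4 ± 1.04 CPM in Malat+_Macrophage. The facility range of Macrophage_3 did not overlap that of Macrophage_1, while those of Macrophage_1 and Malat+_Macrophage did. Macrophage_2 (27.9 ± 4.36 CPM) and Isg+_Macrophage (25.4 ± 9.48 CPM) followed and overlapped each other. The neutrophil cluster held 12.1 ± 11.7 CPM of Igf1 and also 5270 CPM of the resident macrophage markers; the part of those cells' macrophage RNA in the value was not tested. Every other named cluster had a mean of 7.0 CPM (ILC2) or less.

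Single cells gave the same picture of Igf1. At least 1 UMI was found in 18.0% of Macrophage_3 cells (255 of 1418, exact 95% binomial interval 16.0 to 20.1%, median 1100.5 UMIs), in 11.4% of Macrophage_1 cells (228 of 1996, median 1661.5 UMIs) and in 4.52% of Macrophage_2 cells (76 of 1680, median 1781.5 UMIs). In B_cell_1, which should lack the transcript, the share was 0.0266% (1 of 3759 cells, median 2404 UMIs). After every cell was thinned to 500 UMIs the shares were 5.05, 3.16 and 1.37% in Macrophage_3, Macrophage_1 and Macrophage_2. The intervals cover counting error only. Macrophage_3 thus had the highest share although its cells were the shallowest of the 3.

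The Igf1 gene lies at chr10:87858265-87937042 on the plus strand (GRCm38, GENCODE vM21). The RefSeq table of the same build places a start site at chr10:87861111, inside that span. None of the 8 Igf1 transcripts of GENCODE starts within 50 bases of that site. All 250 bases before it are annotated as exon of other Igf1 transcripts. A 30-base stretch of that window is shown because it holds both motif matches found there, a PU.1-type GAGGAAG and an AP-1-type TGANTCA. In the latter N stands for any base, and it was A in this match. Each motif was searched on both strands and is marked in capitals. PU.1 and AP-1 are transcription factors active in macrophages.
Igf1, chr10:87861051-87861080, plus strand, 60 to 31 bases before the start site: GAGGAAGggaaggagctggaactTGAATCA
GAGGAAG occurred in 10.6% and TGANTCA in 6.75% of the 32851 promoter windows of 250 bases in the table, so matches to each are common. The window held no TGGAAA, the core of sites for the osmotic stress factor NFAT5, a motif found in 18.6% of windows, and no ACGTG, the core of hypoxia response elements, found in 16.6%. A match is a run of letters, and the counts, taken from the 3′ end of transcripts, do not tell which start site was used.

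In resident macrophages as a whole the level of Igf1 was higher in the medulla. After scaling by the trimmed mean of M-values (TMM), cortex, OM and IM of Aachen gave 37.6, 120 and 35.5 CPM. In the same order Bonn gave 22.02, 73.3 and 94.3 CPM, and Hamburg gave 19.7, 60.1 and 59.0 CPM. The 3 OM libraries all lay above the 3 cortex libraries, whereas the Aachen IM library lay within the cortex range and the other IM libraries above it. These levels rest on 22, 160 and 19 Igf1 counts for Aachen, on 81, 83 and 412 for Bonn and on 19, 104 and 60 for Hamburg. In bulk sums of this kind, a change in the share of Igf1-rich cells and a change of Igf1 RNA per cell cannot be told apart, so the clusters are also given singly below.

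The fit of edgeR's quasi-likelihood model with facility as a block put the medulla (the mean of OM and IM) above the cortex by 1.70 ± 0.28 on the log2 scale (SE; 3.25-fold), the OM by 1.81 ± 0.31 and the IM by 1.59 ± 0.31. These are sizes only, since Igf1 was chosen with this difference known and is also in a list of compartment genes that the authors drew from the same cells. The difference of log2 CPM between medulla and cortex was 0.78 for Aachen, 1.86 for Bonn and 1.54 for Hamburg. For the IM alone these values were -0.08, 2.04 and 1.53. Between OM and IM, a contrast in which no difference had been chosen, Igf1 differed by 0.22 ± 0.27 (edgeR adjusted p = 0.9996). This lay within the spread of that difference between facilities. No gene was called in that contrast (percent called 0 of 8687 genes; 267 at an unadjusted p under 0.05; DESeq2 also called 0, with 61 unadjusted).

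**Figure D2:**
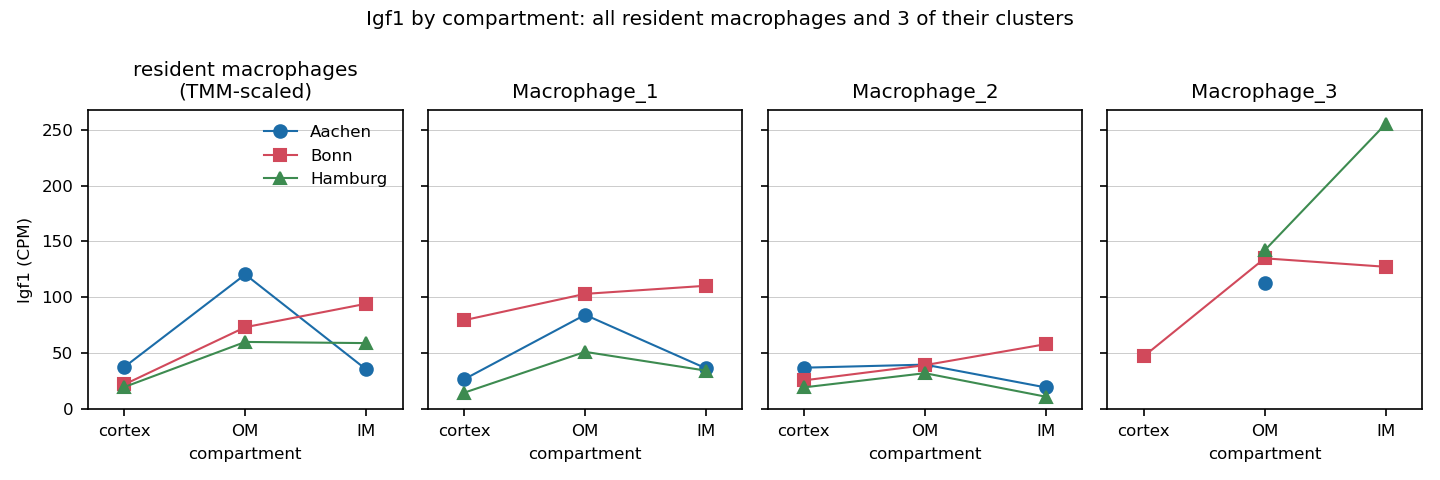
Level of Igf1 (CPM, linear axis from 0) in the cortex, OM and IM, with 1 line per facility, for all resident macrophages (TMM-scaled) and for Macrophage_1, Macrophage_2 and Macrophage_3 (not TMM-scaled). Points need at least 10 cells, so Macrophage_3 has a cortex point in Bonn only. The OM lies above the cortex in each facility of the first 3 panels.

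The make-up of the class moved with the compartment. Macrophage_3, the cluster richest in Igf1, made up 0, 7.05 and 0% of resident macrophages in the cortex of Aachen, Bonn and Hamburg, 44.7, 42.9 and 23.0% in the OM and 1.17, 43.1 and 15.4% in the IM. Without Macrophage_3 the difference of Igf1 between medulla and cortex was 1.34 ± 0.33, so it was smaller but remained. In Macrophage_1 alone it was 1.19 ± 0.30, and in Macrophage_2 alone 0.55 ± 0.34. No fit of Macrophage_3 alone was made, because its cortex cells all came from Bonn (38 cells).

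Within Macrophage_1 the level of Igf1 was 26.6, 84.4 and 36.4 CPM in the cortex, OM and IM of Aachen, 79.5, 103 and 110 CPM in Bonn and 14.6, 51.2 and 34.4 CPM in Hamburg. OM and IM were each above the cortex of their own facility. Within Macrophage_2 the level was 37.0, 39.8 and 19.4 CPM in Aachen, 25.7, 39.3 and 58.1 CPM in Bonn and 19.4, 32.1 and 11.1 CPM in Hamburg. Here the OM was above the cortex in 3 of 3 facilities and the IM in 1 of 3. Macrophage_3 held 113 CPM in the Aachen OM, 47.2, 135 and 127 CPM in the Bonn cortex, OM and IM, and 142 and 255 CPM in the Hamburg OM and IM, so its medullary levels exceeded its 1 cortical level, which rests on 6 counts.

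RNA of tubule cells moved in the same direction in resident macrophages. The 8 tubule markers summed to 24.5 to 43.6 CPM in cortex libraries, 273 to 451 CPM in OM libraries and 67.8 to 789 CPM in IM libraries, with the lowest IM value in Aachen and the highest in Bonn. Markers of fibroblasts and mural cells summed to 21.4 CPM in the Bonn IM. They summed to 3.05 and 3.29 CPM in the Bonn cortex and OM and to 0 in every Aachen and Hamburg library. Col1a2 and Dcn were at 0 in every cortex and OM library. Endothelial markers lay at 2.20 to 42.2 CPM. The part of tubule, fibroblast or mural RNA in the levels of Igf1 and its partners was not tested.

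Among the partners of Igf1, 3 binding proteins were called higher in the medulla. Of 14 genes of the IGF axis, 7 could be tested in resident macrophages, Igf1 itself among them. Of the other 6 genes, 3 were called (Igfbp4, Igfbp5 and Igfbp7), against 1.24% of all 8687 genes tested (56 higher, 52 lower), and the median difference of the 6 was 0.85 against 0.0058 for all genes. The calls were lost in 9 of 22 alternative settings for Igfbp4, in 7 of 15 for Igfbp5 and in 14 of 20 for Igfbp7. Igf1, Igfbp4 and Igfbp7 are in the authors' compartment list, which was drawn from these samples, so their calls are not independent evidence of a direction. Igfbp5 is not in it, but the IGF axis list was itself chosen with earlier results of these data known. The share called and the median are therefore descriptions and no independent evidence.

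Igfbp4, a binding protein that holds Igf1 away from its receptor, was at 46.2, 91.9 and 42.9 CPM in the cortex, OM and IM of Aachen, 28.8, 74.2 and 80.8 CPM in Bonn and 33.2, 72.2 and 58.1 CPM in Hamburg. Like Igf1, it was above the cortex in every OM library and in the IM of Bonn and Hamburg but not of Aachen. The fitted difference between medulla and cortex was 1.14 ± 0.20 (edgeR adjusted p = 0.0176), and 1.27 ± 0.23 for the OM alone (adjusted p = 0.0240). Neither fitting Macrophage_1 alone (0.43) nor Macrophage_2 alone (0.45) kept the call, and without Macrophage_3 it was 0.82 (adjusted p = 0.145). Leaving out 1 library lost the call for the Bonn cortex (0.80), the Hamburg cortex (1.19) and the Hamburg OM (1.13), and leaving out a facility lost it for Bonn (0.76) and Hamburg (1.13).

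Igfbp7, a low-affinity relative of the binding proteins, rose by 1.91 ± 0.44 (edgeR adjusted p = 0.0488). Its level was 12.0, 35.4 and 7.46 CPM in Aachen, 16.0, 31.8 and 106 CPM in Bonn and 2.08, 5.78 and 6.89 CPM in Hamburg. A single library, the Bonn IM, stood far above the rest, and without it the difference was 0.65 (adjusted p = 0.783). The call, close to the threshold, was also lost without the cortex or OM library of Aachen (2.04 and 1.64), the Bonn cortex (1.34) or any of the 3 Hamburg libraries (1.88 to 1.94), and DESeq2 did not make it (adjusted p = 0.372).

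Igfbp5, another binding protein, was nearly absent from the cortex and rested on few libraries. It had 1, 1 and 0 counts in the cortex of Aachen, Bonn and Hamburg, 23, 8 and 1 in the OM and 1, 147 and 1 in the IM. The call (edgeR adjusted p = 0.0184, and 0.0333 for the IM alone) thus came mainly from the Bonn IM and the Aachen OM. No fold is given against so few cortex counts. The Bonn IM and the Aachen OM also had the highest tubule marker sums, and the Bonn IM the highest fibroblast and mural sum (21.4 CPM). Without either of these libraries the gene did not pass the filter, without the Bonn cortex, Hamburg cortex or Hamburg OM its adjusted p was 0.675, 0.0512 and 0.0505, and DESeq2 did not call it (adjusted p = 0.0667). The receptors were not called. Igf1r differed by 0.57 ± 0.33 (adjusted p = 0.635) and Insr, the insulin receptor, by -0.03 ± 0.23 (adjusted p = 0.9996).

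**Figure D3:**
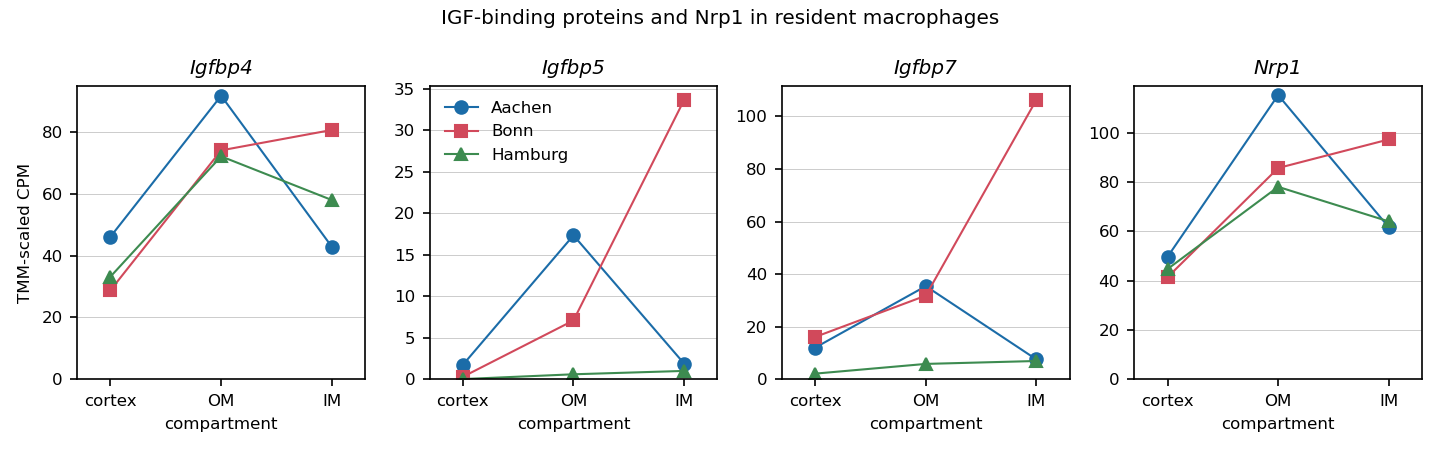
TMM-scaled CPM of Igfbp4, Igfbp5, Igfbp7 and Nrp1 in resident macrophages of the cortex, OM and IM, 1 line per facility, each panel with its own linear axis from 0. Igfbp4 and Nrp1 lie above the cortex in the OM of all 3 facilities, whereas Igfbp5 and Igfbp7 are dominated by the Bonn IM (33.6 and 106 CPM).

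Pdgfa was the member whose pattern over clusters lay closest to that of Igf1. Its level was 36.4 ± 10.9 CPM in Macrophage_3 (SD, n = 3), 28.8 ± 6.09 CPM in Macrophage_1, 24.6 ± 5.53 CPM in pDC (n = 2), 22.9 ± 4.32 CPM in Malat+_Macrophage and 19.8 ± 3.65 CPM in Macrophage_2, with neighbours in this order overlapping. A mean of 20.4 CPM in Malat+_T_cell came from 3 counts, all in Aachen. In resident macrophages the level was 23.9, 48.2 and 29.9 CPM in the cortex, OM and IM of Aachen, 15.8, 15.9 and 32.0 CPM in Bonn and 16.6, 27.2 and 24.6 CPM in Hamburg. OM and IM were at or above the cortex of their facility in every case, and the groups overlapped through the Bonn OM. The fitted difference was 0.73 ± 0.24 (edgeR adjusted p = 0.216), so it was not called. At least 1 UMI of Pdgfa was found in 7.12% of Macrophage_3 cells and in 0.0266% of B_cell_1 cells, and in 27 of 1347 Macrophage_3 cells after thinning.

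Pdgfb spread over all macrophage clusters. It was highest in Malat+_Macrophage at 151 ± 129 CPM (17.5 to 275), then at 106 ± 59.0 CPM in Macrophage_1, 99.5 ± 17.9 CPM in Isg+_Macrophage, 98.0 ± 48.9 CPM in Macrophage_2 and 77.3 ± 36.4 CPM in Macrophage_3, and these ranges overlapped. NK_cell_1 followed at 47.0 ± 30.5 CPM. Resident macrophages held 83.8, 48.2 and 42.9 CPM in the cortex, OM and IM of Aachen, 104, 110 and 92.2 CPM in Bonn and 158, 129 and 102 CPM in Hamburg. The IM was below the cortex in 3 of 3 facilities, but the facilities differed more than the compartments did. The fitted difference between medulla and cortex was -0.38 ± 0.14 (edgeR adjusted p = 0.324), in the opposite direction to that of Pdgfa, and was not called.

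Of 10 genes of the PDGF axis, 5 could be tested, Pdgfa and Pdgfb among them, with a median difference of 0.31. Only 1 was called higher in the medulla, against 1.24% of all 8687 genes called in either direction. This was Nrp1, neuropilin 1, a co-receptor of vascular growth factors that also binds PDGF. Its level was 49.6, 115 and 61.6 CPM in the cortex, OM and IM of Aachen, 41.3, 85.6 and 97.2 CPM in Bonn and 44.6, 78.0 and 64.0 CPM in Hamburg. All 6 medullary libraries exceeded all 3 cortical ones. The difference was 0.97 ± 0.18 (edgeR adjusted p = 0.0176), and 1.08 ± 0.20 for the OM alone (adjusted p = 0.0255). The call was lost in 11 of 22 alternative settings, and the difference ran from 0.56 to 1.09 over all 22. The losses included leaving out the Bonn cortex (0.76), Bonn IM (0.74), Hamburg cortex (1.09) or Hamburg OM (0.98). They also included leaving out all of Bonn (0.73) or Hamburg (1.04). Without Macrophage_3 the difference was 0.78 (edgeR adjusted p = 0.0953). Nrp1 is not in the authors' compartment list, but the list of the PDGF axis was chosen with earlier results of these data known.

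Tgfb1 was found in every named cluster. Its level was highest in monocytes at 432 ± 135 CPM (SD, n = 3), followed by pDC at 323 ± 8.44 CPM (n = 2) and Macrophage_2 at 322 ± 103 CPM, and lowest in T_cell_3 at 88.8 ± 21.8 CPM. Neighbouring ranges overlapped at each step but 1, between T_cell_1 (176 CPM) and cDC1 (136 CPM). In B_cell_1 37.2% of cells held a UMI of Tgfb1 and in Macrophage_1 36.4% (10.8 and 10.4% after thinning). These shares did not separate Macrophage_1 from B_cell_1. T cells as a whole held 116, 128 and 165 CPM in Aachen, Bonn and Hamburg, and B cells 180, 220 and 309 CPM. Resident macrophages held 171, 308 and 313 CPM, above T cells in each facility.

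The Tgfb1 gene lies at chr7:25687002-25705077 on the plus strand, and its RefSeq and GENCODE start sites coincide. The last 100 bases before the start are shown to set this member, found in every cluster, beside Igf1.
Tgfb1, chr7:25686902-25687001, plus strand: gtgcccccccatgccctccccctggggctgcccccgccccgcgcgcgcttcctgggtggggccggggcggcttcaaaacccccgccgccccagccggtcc
Its 250-base window had a GC content of 75.2% with 21 CpG dinucleotides and held none of the 4 motifs searched. The Igf1 window, all of it annotated as exon, had 52.8% and 5, and the median over all windows was 52.4% and 6. Promoter windows of Pdgfa and Grn were in the table as well and each had a window with a single match, to TGGAAA.

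In resident macrophages Tgfb1 was at 236, 209 and 259 CPM in the cortex, OM and IM of Aachen, 280, 284 and 226 CPM in Bonn and 340, 294 and 278 CPM in Hamburg. The compartments overlapped, and the difference between medulla and cortex was -0.15 ± 0.13 (edgeR adjusted p = 0.808). Of 28 genes of TGF-beta and its activation, receipt or limits, 18 could be tested, Tgfb1 among them. By edgeR 0 were called (3 at an unadjusted p under 0.05), with a median of -0.08. The receptors Tgfbr1 and Tgfbr2 differed by -0.29 ± 0.15 and 0.25 ± 0.13 (adjusted p = 0.560 and 0.544), the inhibitor Smad7 by -0.52 ± 0.18 (adjusted p = 0.228), and Nrros, which tethers latent TGF-beta on macrophages, by 0.14 ± 0.13 (adjusted p = 0.807).

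Grn was highest in pDC, followed by the macrophage clusters. Its level in pDC was 1460 CPM in Hamburg and 1499 CPM in Bonn, and Aachen had too few pDC for a value. Isg+_Macrophage (548 ± 123 CPM), Macrophage_3 (479 ± 161 CPM), Macrophage_2 (456 ± 144 CPM) and Macrophage_1 (356 ± 140 CPM) lay lower and overlapped in turn, and the pDC range overlapped none of them. T_cell_3 was lowest at 7.31 ± 3.09 CPM. Resident macrophages held 325, 358 and 360 CPM in the cortex, OM and IM of Aachen, 418, 448 and 442 CPM in Bonn and 425, 459 and 459 CPM in Hamburg. Both medullary libraries were above the cortex in each facility by 0.08 to 0.15 on the log2 scale, and the groups overlapped across facilities. The fitted difference was 0.11 ± 0.11 (edgeR adjusted p = 0.838). Of Grn and its partners, 9 genes were tested and none was called by edgeR (2 at an unadjusted p under 0.05). Among the 9 were Tnfrsf1a (0.09 ± 0.13) and Tnfrsf1b (0.02 ± 0.19), the tumour necrosis factor receptors, which progranulin is reported to bind.

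Osm was highest in neutrophils and monocytes. Neutrophils of Aachen, Bonn and Hamburg held 568, 756 and 253 CPM, on 8, 129 and 191 counts, with only 25 cells in Aachen. The cluster carried its own 4 markers at 54356 CPM. Monocytes held 122 ± 94.9 CPM (15.4 to 198), a range that did not overlap that of neutrophils, and ILC2 38.9 ± 14.1 CPM. At least 1 UMI of Osm was found in 51.6% of neutrophils (141 of 273), 19.5% of monocytes (139 of 714), 2.87% of resident macrophages and 0.612% of B_cell_1 cells. After thinning, the share was 17.3% in neutrophils, 3.52% in monocytes, 0.603% in resident macrophages and 0.0839% in B_cell_1.

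Osm in resident macrophages followed the facility more than the compartment. It was at 25.6, 10.5 and 14.9 CPM in the cortex, OM and IM of Aachen, 2.18, 2.65 and 4.81 CPM in Bonn and 39.5, 42.8 and 33.5 CPM in Hamburg. The difference between medulla and cortex was -0.08 ± 0.30 (edgeR adjusted p = 0.987). Of 8 tested genes of the OSM and interleukin-6 family 0 were called by edgeR (1 at an unadjusted p under 0.05). That gene was the feedback inhibitor Socs3 at 1.49 ± 0.52 (adjusted p = 0.247). The receptor chains Il6st and Lifr differed by 0.33 ± 0.27 and -0.01 ± 0.14.

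Hbegf was rarely detected in macrophages. Resident macrophages held a UMI of it in 8 of 5367 cells, and Macrophage_3 in 0 of 1418 cells, which allows a share of up to 0.212% of cells with a UMI at this depth (3 counts of the total) and sets no limit on the share of cells expressing the gene. The gene was at 75.6 ± 92.3 CPM in T_cell_4, a cluster of 161 cells that carried all 6 T cell markers, and at 7.39 CPM or less in every other named cluster. Within T_cell_4 the level was 17.1, 27.7 and 182 CPM for Aachen, Bonn and Hamburg, on 1, 5 and 63.6 counts, and 17 of 161 cells (10.6%, 3.16% after thinning) held a UMI against 1 of 3759 in B_cell_1. By compartment, Hamburg gave 220, 67.2 and 274 CPM in the cortex, OM and IM, and Bonn gave 37.1 CPM in the cortex and 0 counts in the IM. The level thus rested mainly on the Hamburg cells, and without them the mean was 22.4 CPM. Over all cells, the facilities held 2, 36 and 112 Hbegf counts in the same order. T cells as a whole held 0.548, 2.18 and 9.47 CPM, and resident macrophages 0 counts in Aachen, 0.132 CPM in Bonn and 2.39 CPM in Hamburg. The values were lowest in Aachen and highest in Hamburg in both classes, and the cause was not tested.

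Hbegf did not pass the filter on low counts in resident macrophages. In T cells it differed by -0.39 ± 0.48 between medulla and cortex (edgeR adjusted p = 0.999). Of 16 genes of EGF ligands and receptors 6 could be tested in resident macrophages and 0 were called by edgeR (3 at an unadjusted p under 0.05). Errfi1, an inhibitor of the EGF receptor, differed by 0.62 ± 0.20 (adjusted p = 0.210).

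**Figure D4:**
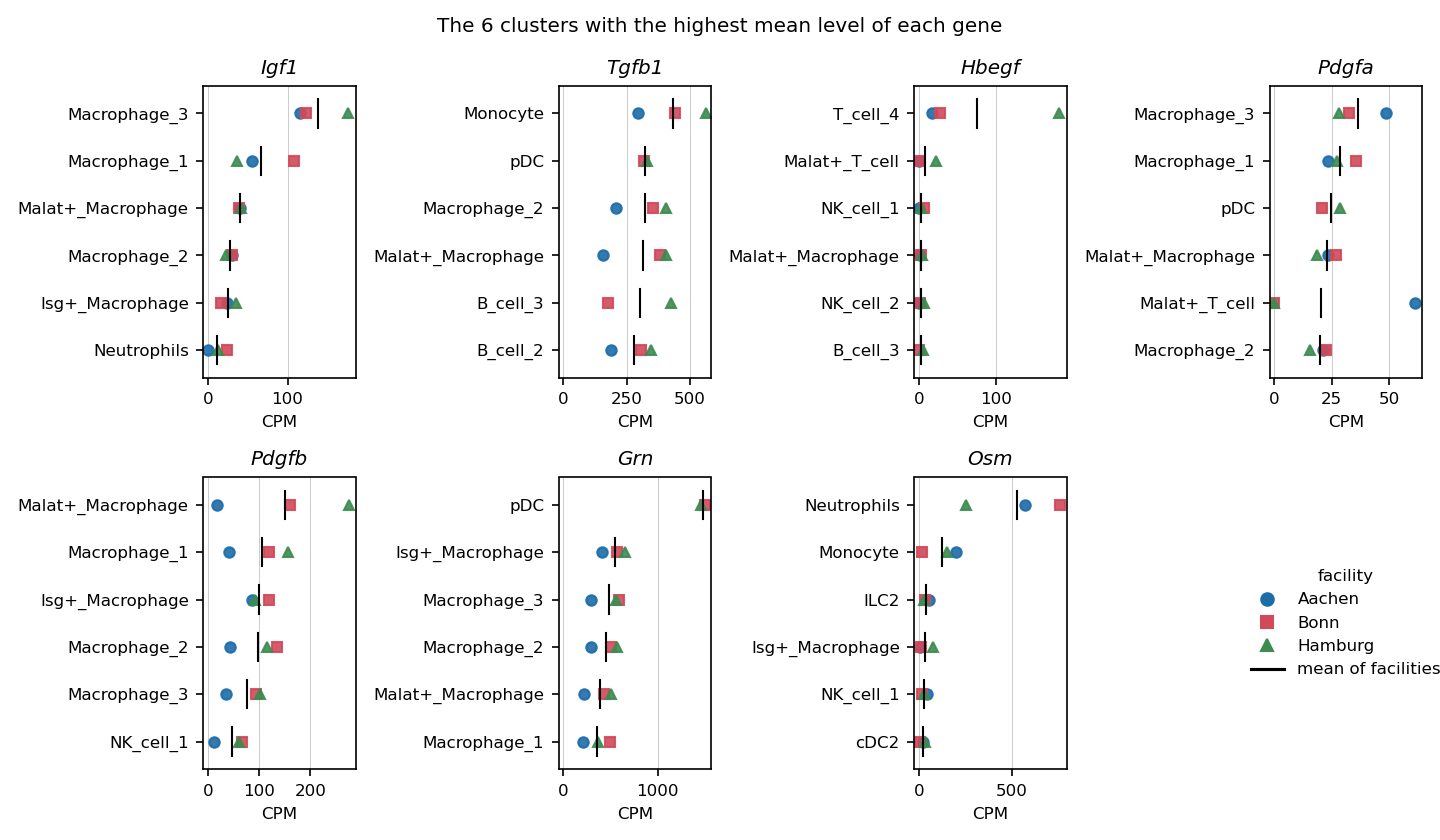
CPM of each gene in the 6 clusters with its highest mean level, 1 panel per gene, with points for facilities holding at least 10 cells and a black bar for their mean; each panel has its own linear axis. The Igf1 points of Macrophage_3 (115 to 176 CPM) lie clear of the other clusters, while the Hamburg point (182 CPM) carries the mean of Hbegf in T_cell_4.

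Beside Igf1, 5 of the other 6 members could be tested in resident macrophages, and 0 of the 5 were called in the medulla (background 1.24%), in the OM (0.852%), in the IM (0.196%) or between OM and IM. At an unadjusted p under 0.05 stood Pdgfa and Pdgfb in the medulla, the former in OM and IM and the latter in the IM. DESeq2 called 0 of the 5 in any of these contrasts. A difference that misses the threshold does not show that a gene was unchanged.

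**Figure D5:**
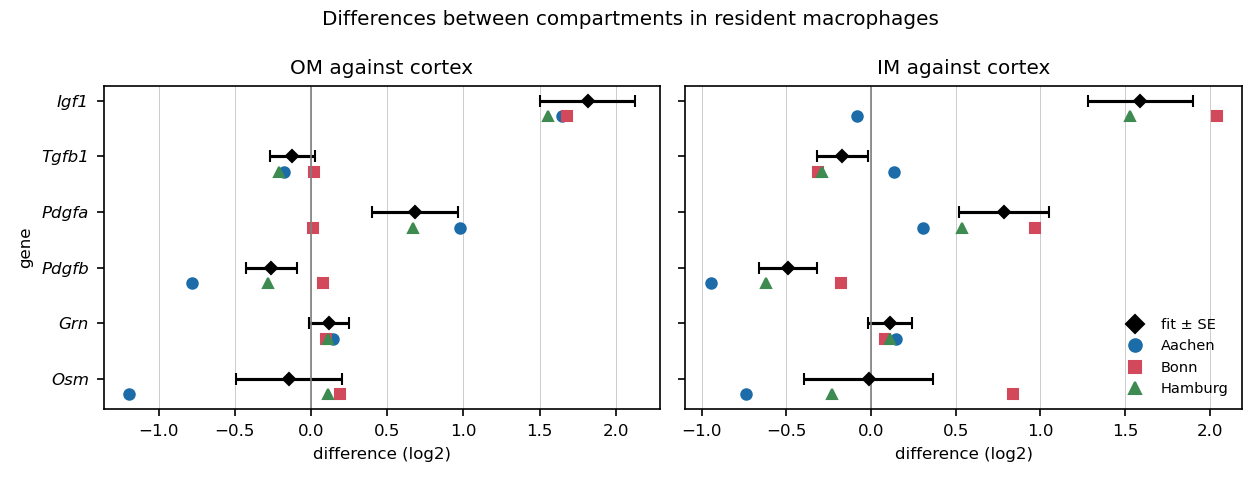
Differences in resident macrophages of the OM (left) and IM (right) from the cortex, on the log2 scale, for the 6 members that passed the filter. Black diamonds are the edgeR fit with SE and coloured points the difference of log2 CPM within each facility. The Igf1 points lie at 1.55 to 1.68 in the OM and at -0.08 to 2.04 in the IM, and those of Grn at 0.08 to 0.15 in both.

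Outside resident macrophages the members that passed the filter were not called between medulla and cortex by edgeR, and 0 of them had an unadjusted p under 0.05. DESeq2 called none of them either. The backgrounds were 0.0335% of 8957 genes in T cells, 0.0898% of 8911 in B cells, 0.304% of 4935 in cDC2, 0.332% of 6029 in monocytes and 0.0299% of 3341 in NK cells, so few genes of any kind were called there. Tgfb1 differed by 0.19 ± 0.11 in T cells (adjusted p = 0.969), by 0.13 ± 0.11 in B cells (adjusted p = 0.9995) and by -0.03 ± 0.16 in monocytes (adjusted p = 0.999). Osm in monocytes differed by -0.27 ± 0.25 (adjusted p = 0.999), with cortex, OM and IM levels of 192 ± 190, 77.8 ± 63.2 and 115 ± 72.9 CPM. Igf1 and Pdgfa did not pass the filter in any of these classes.

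Among 18 other growth factors that macrophages make, 10 could be tested in resident macrophages and 1 was called, against 1.24% of all genes tested. Gas6, the ligand of the receptor Mertk that marks dying cells for uptake, was at 17.1, 85.9 and 26.1 CPM in the cortex, OM and IM of Aachen, 13.6, 76.8 and 84.0 CPM in Bonn and 11.4, 52.6 and 37.4 CPM in Hamburg. Every medullary library exceeded every cortical one, and the difference was 2.34 ± 0.28 (edgeR adjusted p = 0.00219). The call held without each library in turn and was lost in 1 of 21 alternative settings. Gas6 is in the authors' compartment list too. The median of the 10 genes was 0.38.

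In other cells 3 genes of the lists were called, in cDC2 and monocytes, where 0.304 and 0.332% of all genes tested were called. In cDC2 Spp1 was the only call among 2 tested genes of its list. In monocytes Thbs1 was the only call among 15 of its list, and Gdf15 among 5. No list gene was called in T, B or NK cells. Spp1, osteopontin, fell by 2.05 on the log2 scale in medullary cDC2 (SE 0.38, edgeR adjusted p = 0.0155), from 155, 20.2 and 102 CPM in the cortex of Aachen, Bonn and Hamburg to 9.63 to 37.0 CPM in the medulla, on 53 cortex counts in all. Thbs1, thrombospondin 1, an activator of latent TGF-beta, was higher in medullary monocytes by 1.32 ± 0.25 (adjusted p = 2.22e-04 in edgeR), with 95, 273 and 400 counts in cortex, OM and IM, most of them from Hamburg. DESeq2 did not call Thbs1, and without Aachen it was 1.25 (adjusted p = 0.172). Gdf15, a stress-induced cytokine, was lower there by edgeR (adjusted p = 1.04e-06), but 95 of its 98 cortex counts came from Hamburg and DESeq2 did not call it. Without Hamburg, Spp1, Thbs1 and Gdf15 did not pass the filter in these cells. Gdf15 and Spp1 are in the authors' list of variable genes, drawn from these samples.

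The genes whose levels followed each member most closely were found by Pearson's r of log2(CPM + 10) over the 22 named clusters, among 9947 genes; the clusters share libraries and depth, so r is a description. For Igf1 they were 2610203C22Rik (0.98), Wtip (0.98), Epor (0.97), Ctsf (0.96) and Cxcl14 (0.96), each highest in Macrophage_3 as Igf1 was. For Pdgfa they were P2ry12, Ntpcr, B3galnt1, Fndc3b and Ctsb (0.91 to 0.94), and for Pdgfb S1pr2, Pea15a, Gpr160, Adrb1 and Nmt1 (0.90 to 0.93). Grn was followed by Asah1, Ppfia4, Mpeg1, Psap and Clec12a (0.94 to 0.95), of which Asah1 and Psap encode lysosomal proteins.

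Osm was followed by Slc16a3, Pygl, Dgat2, Ndel1 and Hcar2 (0.90 to 0.94), all highest in neutrophils. Hbegf was followed by Abi3bp, Cd163l1, Ppp1r14c, Rbpms2 and Il23r (0.96 to 0.98), all highest in T_cell_4. Tgfb1 had looser companions, Tfeb, Calhm2, Mtdh, Lyn and Qk (0.79 to 0.85). Among the members themselves, Igf1 correlated with Pdgfa at 0.81 and with Pdgfb at 0.76 but with Osm at 0.16 and with Hbegf at -0.17.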

How the data were processed

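The authors mapped reads with Cell Ranger to mm10 and clustered cells with Seurat (versions not given in the sources used here). The deposited table holds expected counts of UMIs per gene and cell, not scaled to depth, with compartment, cluster and facility. Aachen and Bonn values are whole; 0.118% of the nonzero Hamburg values are, so Hamburg sums were rounded for the fits. The Aachen libraries hold 2 barcode suffixes each. Doublets were not called anew.

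Counts were summed per library and class, filtered with filterByExpr, TMM-scaled and tested with edgeR 4.0.16 (R 4.3.3; glmQLFit, glmQLFTest) with facility as block and Benjamini-Hochberg adjustment over all genes tested, threshold 0.05. Facility pairs the libraries: deviations from compartment means correlated at 0.81 to 0.91 within (9 pairs) and -0.87 to 0.48 between facilities (27 pairs). For differences within a facility, 2 was the prior count of log2 CPM. DESeq2 1.42.0, other filters and size factors, thinning and left-out libraries were alternatives. The fits were tested on simulated data.

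Members and lists were chosen with earlier results of these data known. Named were all members, list genes called in a printed contrast, up to 4 receptors or inhibitors per list, and the 5 genes most like each member (at least 20 CPM in a cluster). Sequences are from RefSeq (GRCm38.p6), with windows for 4 of 7 members.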

Additional observations from a re-analysis of the deposited data

How the results depend on the processing

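Counts of called genes depended on the processing. In resident macrophages the 108 genes of medulla against cortex became 48 with DESeq2, 382 with no filter, 0 without the facility block, 26 with cells thinned to 500 UMIs, 6 without Macrophage_3, 36 and 1 in Macrophage_1 and Macrophage_2 alone and 68 with Malat+_Macrophage added. OM against cortex (74) gave 49, 330, 0 and 39 under the first 4 of these, IM against cortex (17) 3, 279, 0 and 0, and OM against IM 36 with no filter. T cells (3) gave 0, 107, 0 and 1, B cells (8) 0, 84, 0 and 2, cDC2 (15) 4, 37, 0 and 6, monocytes (20) 1, 32, 0 and 2, and NK cells (1) 0, 14, 0 and 0, and 0 with relative log expression size factors. Leaving out a facility, or in the medulla contrast of resident macrophages also a library, gave 6 (without Hamburg) to 262 genes (without the Aachen IM) for the medulla, 5 to 110 (OM), 0 to 207 (IM), 0 to 2 (OM against IM), 0 to 37 (T cells), 6 to 34 (B cells), 2 to 17 (cDC2), 3 to 25 (monocytes) and 0 to 52 (NK cells). The causes were not tested. Macrophage_3 alone was not run, having too few cortex cells.

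The difference of Igf1 between medulla and cortex kept its direction in all settings run; it was 0.55 in Macrophage_2 alone and 1.30 to 1.87 with a facility or library left out. Pdgfa passed the threshold with no filter (0.73, edgeR adjusted p = 0.0382) and in no other setting. Values of the other members turned sign only where no setting called them. In resident macrophages, Osm was 0.033 without Macrophage_3, 0.90 in Macrophage_2 alone and -0.41 to 0.22 over left-out facilities and libraries, and Grn -0.011 in Macrophage_1 alone. With a facility left out, Osm was -0.71 to 0.22 (OM) and -0.41 to 0.18 (IM) against cortex. OM against IM then ranged from -0.23 to 0.73 for Igf1, -0.46 to 0.40 for Pdgfa, -0.11 to 0.19 for Tgfb1, -0.89 to 0.13 for Osm and -0.010 to 0.0044 for Grn. The same contrast was 0.076 for Pdgfa and 0.14 for Osm without the block, -0.12 for Tgfb1 and -0.078 for Pdgfb after thinning, and -0.00059, -0.0013 and -0.0017 for Grn with DESeq2, relative log expression size factors and no filter. In B cells, Tgfb1 was -0.0046 after thinning and Grn -0.043 with DESeq2, -0.13 without the block and -0.22 to 0.12 with a facility left out. In cDC2, Tgfb1 and Grn were 0.34 and 0.15 after thinning. In monocytes, Grn was 0.0036 with DESeq2, 0.026 without the block and -0.087 to 0.19 with a facility left out, Tgfb1 then -0.27 to 0.17 and Osm -0.60 to 0.063.

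Thinning to 500 UMIs left out 814 cells and lowered the shares of cells with a UMI to 5.05% (Igf1, Macrophage_3), 18.6% (Tgfb1, monocytes), 3.16% (Hbegf, T_cell_4), 2.004% (Pdgfa, Macrophage_3), 7.05% (Pdgfb, Malat+_Macrophage), 46.5% (Grn, pDC) and 17.3% (Osm, neutrophils). Grn in pDC was 1541 CPM as a mean over cells.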
